A study of Homo sapiens with 4 samples.

Results

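Pairs of protein-coding genes that start close together and are transcribed away from each other were examined for new DNA methylation in HEK293 cells, a human cell line derived from embryonic kidney. The cells had been transfected with dCas9 carrying 10 SunTag copies, an antibody fragment fused to a single-chain DNMT3A/DNMT3L methyltransferase (Ab-3A3L, wild type), and a guide RNA to ISG15. They were sorted for all components and harvested after 3 days. Methylated DNA was pulled down with GST-MBD2 and sequenced (MBD-seq) from 4 libraries, 1 each of untreated cells, Ab-3A3L (WT), Ab-3A3L (K844E) and Ab-3A3L (R887E). The values come from the list of 12864 new peaks of the Ab-3A3L (WT) library, which the paper describes as new relative to untreated cells. The other libraries were not analysed here. A pair was any minus-strand coding gene whose start site lay at most 1000 bp to the left of the start site of a plus-strand coding gene, by 1 canonical start site per gene on chromosomes 1 to 22. The rule found 948 pairs, made of 1826 genes, which is 9.62% of the 18978 coding start sites. The region of a pair was the span between its start sites plus 500 bp into each gene. Since 69 genes belonged to more than 1 pair, 879 regions remained when 1 pair was kept per group of overlapping regions. The start sites were a median of 233 bp apart, with a range of 11 to 1000 bp.

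Bidirectional promoters are a common arrangement in mammalian genomes. The genes share the stretch between their start sites, which usually lies in a CpG island and is kept free of methylation and of nucleosomes in active cells. Many of the genes involved serve general functions such as DNA repair, mitochondrial function, protein folding and chromatin packaging. DNMT3A with its cofactor DNMT3L adds methyl groups to unmethylated CpGs, and the MBD domain of MBD2 binds methylated CpGs.

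The stretches between the start sites are printed for the pairs on which the comparisons turn, since they are the part that both genes share. All are written 5′ to 3′ along the plus strand of hg19, from the minus-strand start site to the plus-strand start site, and capitals mark every CpG. The first set holds the pairs with the highest fold of their new peak among those with a short stretch. GLYR1/UBN1 (chr16:4897289-4897482) had 33 CpGs in 194 bp, H2AC25/H2BC26 (chr1:228645574-228645804) had 15 in 231 bp, and THAP12/GVQW3 (chr11:76092176-76092367) had 23 in 192 bp.
GLYR1/UBN1: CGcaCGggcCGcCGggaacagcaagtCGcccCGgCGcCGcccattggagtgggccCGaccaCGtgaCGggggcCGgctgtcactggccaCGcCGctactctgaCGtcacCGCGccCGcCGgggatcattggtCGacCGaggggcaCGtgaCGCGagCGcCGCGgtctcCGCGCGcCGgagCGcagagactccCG
H2AC25/H2BC26: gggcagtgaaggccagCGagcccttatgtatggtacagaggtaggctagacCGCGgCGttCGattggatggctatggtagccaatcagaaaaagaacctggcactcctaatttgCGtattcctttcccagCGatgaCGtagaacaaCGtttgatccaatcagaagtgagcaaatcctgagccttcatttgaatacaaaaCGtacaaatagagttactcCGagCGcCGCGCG
THAP12/GVQW3: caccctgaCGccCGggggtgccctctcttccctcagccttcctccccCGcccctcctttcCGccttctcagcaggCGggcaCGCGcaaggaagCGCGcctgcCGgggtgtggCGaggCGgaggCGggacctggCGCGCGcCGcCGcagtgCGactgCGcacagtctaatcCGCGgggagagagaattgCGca

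The second set holds pairs with very many CpGs in the region and no new peak. SDF4/B3GALT6 (chr1:1167381-1167617) had 42 CpGs between the start sites, ALYREF/ANAPC11 (chr17:79849462-79849599) had 26, and MORN1/RER1 (chr1:2322993-2323280) had 36.
SDF4/B3GALT6: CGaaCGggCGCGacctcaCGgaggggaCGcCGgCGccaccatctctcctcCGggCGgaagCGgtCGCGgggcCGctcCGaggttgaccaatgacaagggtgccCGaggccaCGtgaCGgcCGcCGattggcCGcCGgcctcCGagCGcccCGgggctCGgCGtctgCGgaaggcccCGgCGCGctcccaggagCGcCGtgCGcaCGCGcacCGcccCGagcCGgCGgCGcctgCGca
ALYREF/ANAPC11: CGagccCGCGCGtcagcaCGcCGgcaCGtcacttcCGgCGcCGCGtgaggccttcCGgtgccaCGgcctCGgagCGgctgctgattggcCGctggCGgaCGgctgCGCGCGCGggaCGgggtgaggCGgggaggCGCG
MORN1/RER1: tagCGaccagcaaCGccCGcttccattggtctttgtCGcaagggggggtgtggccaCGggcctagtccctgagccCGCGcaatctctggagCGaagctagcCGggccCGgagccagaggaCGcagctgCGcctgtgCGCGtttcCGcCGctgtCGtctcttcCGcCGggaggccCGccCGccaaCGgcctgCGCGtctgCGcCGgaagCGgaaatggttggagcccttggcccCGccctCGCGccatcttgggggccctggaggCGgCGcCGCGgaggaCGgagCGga

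The third set holds long-known divergent pairs. SURF1/SURF2 (chr9:136223363-136223426) had 6 CpGs between the start sites, COL4A1/COL4A2 (chr13:110959504-110959631) had 20, and SARS2/MRPS12 (chr19:39421403-39421584) had 19.
SURF1/SURF2: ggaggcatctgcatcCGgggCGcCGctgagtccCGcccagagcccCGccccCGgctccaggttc
COL4A1/COL4A2: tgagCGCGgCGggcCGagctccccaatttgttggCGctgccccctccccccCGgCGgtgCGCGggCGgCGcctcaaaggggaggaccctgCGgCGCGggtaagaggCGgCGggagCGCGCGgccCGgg
SARS2/MRPS12: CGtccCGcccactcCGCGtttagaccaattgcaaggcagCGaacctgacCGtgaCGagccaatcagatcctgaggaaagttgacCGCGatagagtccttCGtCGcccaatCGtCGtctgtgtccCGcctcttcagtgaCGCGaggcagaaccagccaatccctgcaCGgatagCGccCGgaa

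New peaks overlapped 487 of the 948 pair regions by at least 1 bp, which is 51.4% (95% exact binomial interval 48.1% to 54.6%). With 1 pair per group of overlapping regions the share was also 51.4%, 452 of 879. For the background, 41.9% of the 18978 coding start sites had a new peak within 500 bp, in a shorter window than that of a pair. Among 16240 single coding promoters, which have no other coding start site within 1000 bp, 41.3% (40.6% to 42.1%) had a new peak in a window of 1234 bp, the median length of a pair region. That window reaches into 1 gene only, whereas the region of a pair reaches into a gene on both sides. The intervals cover counting error only, since there was 1 library per condition, and regions are not replicates. No test between conditions or promoter classes was made. A region without a listed peak was not measured to be unmethylated, because the list holds no values outside the peaks. Such a region may also have been methylated already in untreated cells, which was not examined.

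The pair regions were rich in CpGs, and at equal CpG number the order of pairs and single promoters was the reverse. A pair region held a median of 91 CpGs against 72 in the window of a single promoter, and 96.7% of the pairs had a CpG island in the region against 68.4% of the single promoters. All 487 pairs with a new peak were among the 917 with an island. Of the pairs with an island 53.1% (49.8% to 56.4%) had a new peak, and of the single promoters with an island 59.7% (58.8% to 60.6%). Weighted to the CpG numbers of the pairs in classes of 20, the single promoters reached 60.1%, above the 51.4% of the pairs and outside their interval.

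**Figure D1:**
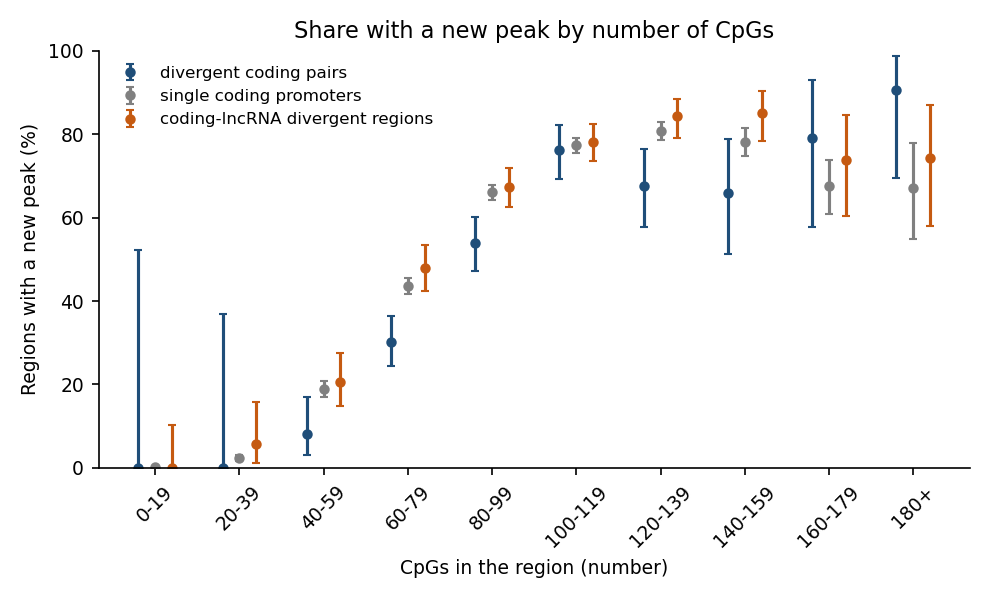
Share of regions with a new peak (y axis, percent) by the number of CpGs in the region (x axis), for divergent coding pairs, single coding promoters and coding-lncRNA divergent regions. Bars are 95% exact binomial intervals. The pairs lie below the other groups from 40 to 99 CpGs and from 120 to 159 CpGs, and close to them from 100 to 119 CpGs.

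The difference was clearest at moderate CpG numbers. Of pairs with 60 to 79 CpGs 30.2% (24.5% to 36.4%) had a new peak, against 43.6% (41.7% to 45.5%) of single promoters. With 80 to 99 CpGs the shares were 53.8% (47.2% to 60.2%) and 66.1% (64.3% to 67.9%). With 100 to 119 CpGs they were 76.1% and 77.5%, with overlapping intervals. With 120 to 139 CpGs the pairs were lower again, at 67.6% (57.8% to 76.4%) against 80.7% (78.5% to 82.8%). From 160 CpGs upwards the pairs had the higher shares, on 24 and 21 pairs, and the intervals overlapped. Divergent regions of 1 coding gene and 1 lncRNA, the same arrangement with a noncoding partner, had a new peak in 62.7% (60.5% to 64.9%) of 1838 regions, at a median of 97 CpGs. Their coding genes may also be among the single promoters. Coding pairs that overlap head to head, with start sites in the opposite order, had one in 25 of 55 regions, or 45.5% (32% to 59.4%).

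Pairs with and without a new peak differed in base composition. The median CpG number was 104 with a new peak and 77 without, and the median GC content was 64.4% and 58.8%. The lowest CpG number of a pair with a new peak was 57. Of the 21 pairs with 180 CpGs or more 19 had a new peak (90.5%), and of the 13 pairs with fewer than 40 CpGs 0 had one, which allows a share of up to 23.1%. Single pairs stood apart from this order. ACAP3/PUSL1, an ARF GTPase-activating protein next to a pseudouridine synthase, had the most CpGs of all pairs, 249, and no new peak. SDF4/B3GALT6, a calcium-binding protein of the secretory pathway next to a galactosyltransferase of proteoglycan synthesis, had 186 CpGs and none, and these were the only 2 pairs of 180 CpGs or more without one. ZNF319/USB1 had 172, SH3YL1/ACP1 had 170 and RECQL4/LRRC14 had 165, all without a new peak. At the other end, ECD/FAM149B1 and PDZD7/SFXN3 had 57 CpGs each and new peaks of 5.90-fold and 4.73-fold. NIPAL4, a magnesium transporter of the skin, and its unnamed partner gene had 58 CpGs and a 16.8-fold peak, among the 10 highest folds of all pairs.

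**Figure D2:**
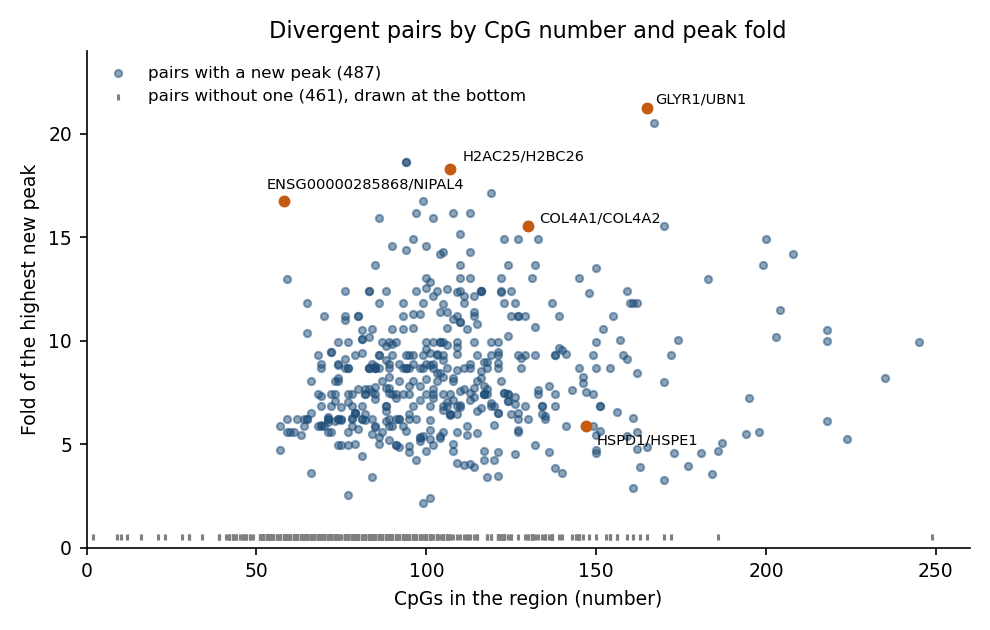
Fold of the highest new peak (y axis) against the number of CpGs in the region (x axis) for 487 pairs with a new peak, with 461 pairs without one drawn as ticks at the bottom. GLYR1/UBN1 has the highest fold, 21.3, and ENSG00000285868/NIPAL4 reaches 16.8 with 58 CpGs.

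The new peaks of the pairs were lower and narrower than those of single promoters. The fold is the number of fragments at the summit plus 1, divided by the background plus 1, which is the formula that the listed values follow. Its median over the pairs was 7.99 (quartiles 6.21 and 9.93, range 2.15 to 21.3), against 8.41 over single promoters and 7.45 over the whole list. Worked back from fold and p-value, the summit of a pair's highest peak held a median of 15 fragments, and that of a single promoter 17. The median width was 510 bp over the pairs and 616 bp over single promoters. More than 1 peak lay in 81 of the 487 pair regions, 16.6% (13.4% to 20.2%), against 8.30% (7.65% to 8.99%) of the single promoters with a peak. The background was at its lowest, genome-wide rate of 0.611 fragments in 41.7% of the pair peaks and 34.4% of the single promoter peaks, where the fold follows from the fragments at the summit alone.

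The highest fold, 21.3 with 35 fragments at the summit, belonged to the peak over both start sites of GLYR1/UBN1. GLYR1 is a reader of nucleosomes in transcribed genes, and UBN1 is a subunit of the HIRA histone chaperone complex. The peak was 1744 bp wide. Its summit lay 531 bp into UBN1, in the untranslated part of exon 1 and outside the region, which reaches 500 bp into each gene. RPL7/RDH10, a ribosomal protein next to a retinol dehydrogenase, followed with 20.5 and a peak over the RDH10 start site only. ARID4B, a chromatin-binding protein, and GGPS1, an enzyme of isoprenoid synthesis, had an 18.6-fold peak inside ARID4B that covered neither site and had its summit 874 bp into the gene, outside the region. Such summits outside the region belonged to 60 of the 487 highest-fold peaks, 12.3% (9.53% to 15.6%). Among the 10 highest folds they also included those of RPL7/RDH10 (835 bp into RDH10), THAP12/GVQW3 (534 bp into THAP12) and L3HYPDH/JKAMP (572 bp into L3HYPDH). H2AC25/H2BC26, a pair of core histone genes, had an 18.3-fold peak over the H2AC25 side and a 6.81-fold peak over the H2BC26 side. The other pairs among the 10 highest were THAP12/GVQW3 (17.1, in THAP12, with a 6.83-fold peak over both sites), ENSG00000285868/NIPAL4 (16.8), NFS1/ROMO1 (16.8), L3HYPDH/JKAMP (16.1), METTL1/EEF1AKMT3 (16.1) and ENKUR/THNSL1 (15.9). NFS1 supplies sulfur for iron-sulfur clusters, METTL1 methylates tRNA and EEF1AKMT3 methylates a translation elongation factor. Of these 10 pairs 4 had both start sites in the same peak, 4 had 1 site in a peak and 2 had a peak on neither site.

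The midpoint of the shared stretch lay in a peak in 182 of the pairs with a new peak, 37.4% (33.1% to 41.8%). Of the 487 pairs with a new peak, 127 (26.1%, 22.2% to 30.2%) had both start sites in the same peak and 14 (2.87%) had them in separate peaks. Only the plus-strand site was covered in 86 and only the minus-strand site in 81, together 34.3% (30.1% to 38.7%). In 179 pairs, 36.8% (32.5% to 41.2%), the peak covered neither site. This share was 19.9% when a site within 100 bp of a peak counted as covered. The start sites of the pairs with a peak lay inside it in 449 of 974 cases, 46.1% (42.9% to 49.3%), against 69.3% (68.2% to 70.4%) of single promoters with a peak. With the same window around each site, from 116 bp upstream to 500 bp downstream, the shares were 61% (57.3% to 64.7%) and 72.2% (71.1% to 73.3%). Among these 487 pairs, the plus-strand site was in a peak in 63.5% (56.8% to 69.9%) of the 222 with the minus-strand site in one, and in 32.5% (26.9% to 38.5%) of the other 265.

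**Figure D3:**
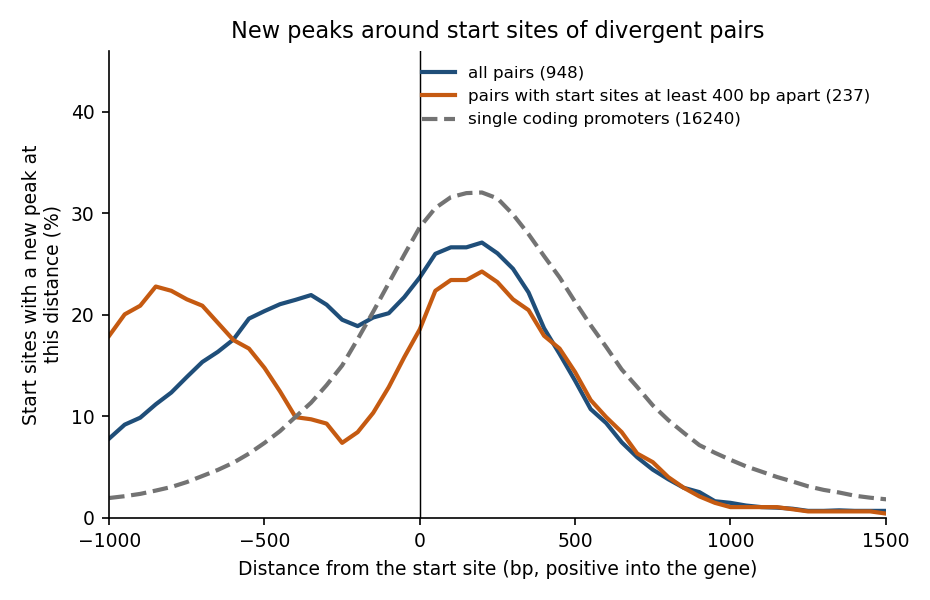
Share of start sites with a new peak at each distance (y axis, percent) against the distance from the start site (x axis, bp, positive into the gene), for all pairs, pairs with start sites at least 400 bp apart, and single coding promoters. The pairs reach 27.1% at 200 bp into the gene and 23.7% at the start site, single promoters 32% and 28.6%, and the wide pairs fall to 7.38% at 250 bp upstream, while the rise further upstream lies over or near the partner gene.

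The share of start sites covered by a new peak was highest a little inside the gene, at 27.1% at 200 bp, and was 23.7% at the start site itself. For the 237 pairs with start sites at least 400 bp apart it fell from 24.3% at 200 bp inside the gene to 7.38% at 250 bp upstream. Single promoters were at 15% at that upstream distance. At the midpoint of the stretch the share was 30.8% for pairs up to 100 bp apart and 8.02% for pairs over 400 bp apart. At 250 bp inside the genes these classes were at 28% and 23.2%.

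The summits at pairs mostly lay inside the genes. In the same window around each site, the summit of the highest-fold peak was downstream of the start site for 69.4% of pair sites, at a median of 161 bp. For single sites the share was 78.3%, at a median of 192 bp. The window reaches 500 bp downstream but only 116 bp upstream, so these shares alone do not show where summits gather. With 1 pair per group of overlapping regions, 49 of 458 summits inside the regions lay between the start sites, 10.7% (8.02% to 13.9%). The stretch between the sites made up 23.2% of the length and 26.1% of the CpGs of these regions. Per kb there were 0.359 summits between the sites and 0.905 beyond them. Among pairs with sites over 200 bp apart, 27 summits lay between the sites and 248 beyond them, where the stretch held 30.8% of the length. The summit of the highest-fold peak lay in intron 1 in 42.3% of 452 pairs, in the untranslated part of exon 1 in 22.1%, in the coding part of exon 1 in 21.5%, between the start sites in 9.07% and further in the gene in 5.09%. The stretch between the sites was the denser part in CpGs, with a median of 9.37 per 100 bp against 6.8 in the first 500 bp of the genes, and it was denser in 77.6% of all pairs.

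The distance between the start sites went with how the peaks lay over them, while the share of pairs with one showed no steady change. The share with a new peak was 48.6% up to 50 bp, 53.1% over 50 and up to 100 bp, 51.3% up to 200 bp, 51.8% up to 400 bp, 44.8% up to 700 bp and 62.2% up to 1000 bp, and the intervals of these classes overlapped. These shares are not at equal CpG number or length. The median CpG number rose from 74 up to 50 bp to 121 over 700 bp, and the regions grew longer. Of the pairs with a new peak, the share with both sites in the same peak fell from 55.6% up to 50 bp to 40.5% over 100 and up to 200 bp and 4.35% over 700 bp. The share with 1 site covered was 0 of 18 in the closest class, which allows up to 16.7%, 44.6% over 200 and up to 400 bp and 56.5% over 700 bp. The share with neither site covered was between 34.8% and 44.4% in every class. The shortest peak of the list was 253 bp, longer than the distance in the closest classes.

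**Figure D4:**
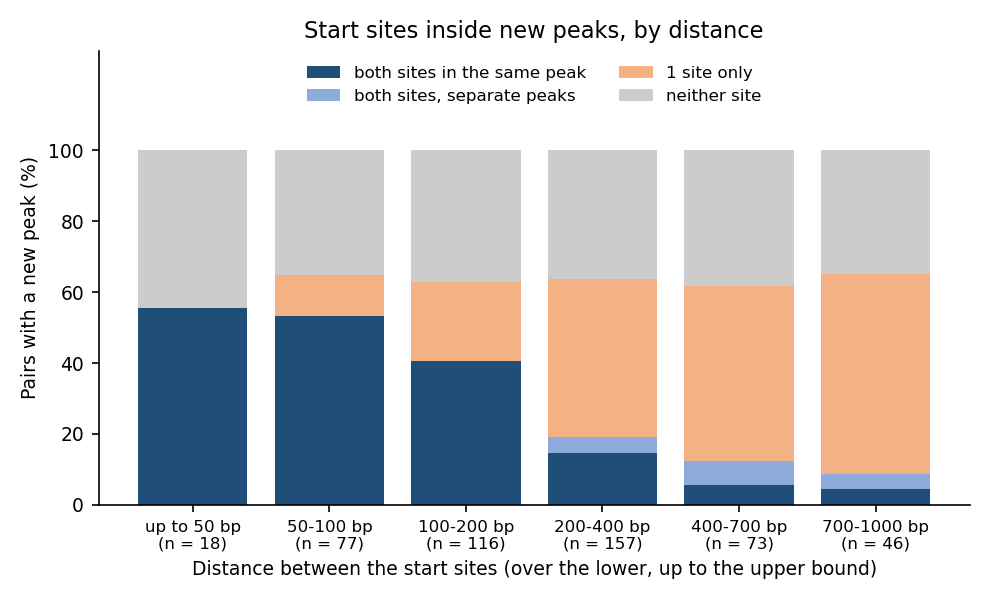
Pairs with a new peak (y axis, percent) by the distance between the start sites (x axis, bp), split by whether both sites lie in the same peak, in separate peaks, 1 site only or neither. The same-peak share falls from 55.6% to 4.35% with distance, the 1-site share rises from 0 to 56.5%, and the share with neither site stays between 34.8% and 44.4%.

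In pairs up to 200 bp apart, the density of CpGs between the sites went with the class of the peak. It was 14.3 per 100 bp (median of 98 pairs) where 1 peak covered both sites, 10.6 (78 pairs) where the peak covered neither site and 10.1 (197 pairs) where there was none. The first 500 bp of the genes held 8.2, 7.6 and 6 CpGs per 100 bp in the same classes. In SURF1/SURF2 and COL4A1/COL4A2, printed above, 1 peak ran over the whole stretch. H2AC25/H2BC26, with sites 230 bp apart, is outside these classes. Its peaks left out most of a stretch with 15 CpGs and 3 CCAAT boxes. The peak over the H2AC25 site covered the CCAAT boxes at positions 63 and 81.

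Where only 1 site was covered, it was more often that of the gene with more CpGs. The class records the covered site only. In some of these pairs, among them YY1AP1/DAP3, a further peak lay inside the gene whose site was not covered. In 167 such pairs the first 500 bp of the gene with the covered site held more CpGs than those of its partner in 129, the same number in 3 and fewer in 35. Leaving out the equal ones, this is 78.7% (71.6% to 84.7%). The medians were 44 and 29 CpGs. The skew of G over C along the gene was higher on the side of the covered site in 82 of 167 pairs. Among pairs at least 200 bp apart, the highest folds of this kind were those of RPL7/RDH10, with 19 CpGs in RPL7 and 66 in RDH10, and H2AC25/H2BC26, with 56 and 36. In METTL1/EEF1AKMT3 the numbers were 27 and 44, in ENKUR/THNSL1, a sperm flagellum protein next to a threonine synthase-like protein, 10 and 46, and in INTS13/FGFR1OP2 (15.9-fold) 15 and 47. In each of these 5 pairs the covered site was that of the gene with more CpGs. H2AC25/H2BC26 also had a 6.81-fold peak inside H2BC26, the gene with fewer.

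**Figure D5:**
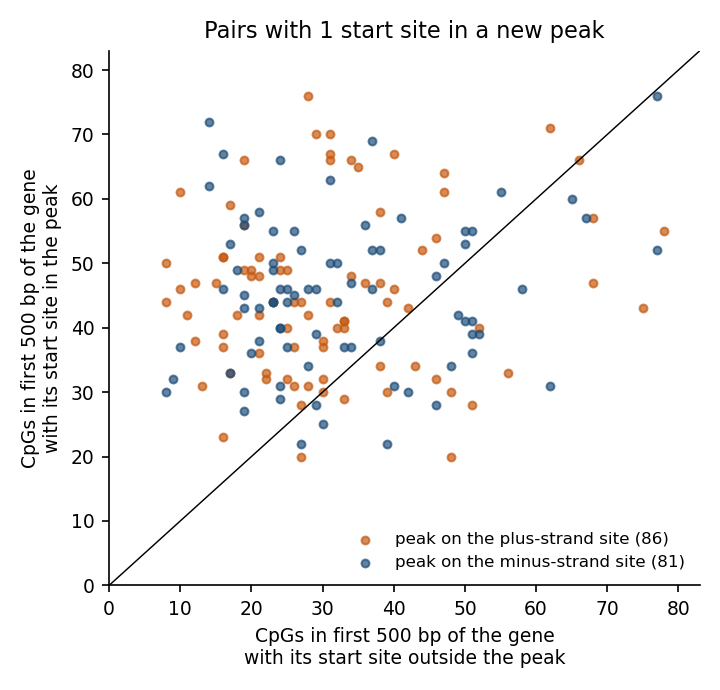
CpGs in the first 500 bp of the gene with its start site in the new peak (y axis) against those of its partner (x axis) for 167 pairs with 1 start site in a peak. Points above the line of equal numbers, 129 of 167, have more CpGs in the gene whose start site is covered.

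Separate peaks on the start sites were found in 14 pairs, with gaps of 152 to 633 bp and a median gap of 216.5 bp. RNF170/HOOK3, a ubiquitin ligase next to a microtubule adaptor, had a 9.93-fold peak over the RNF170 site and a 14.9-fold peak over the HOOK3 site, with a gap of 211 bp. ZBTB25/ZBTB1, both zinc finger transcription factors, had folds of 6.49 and 13.7. EIF2B4/SNX17, a translation initiation factor subunit next to a sorting nexin, had folds of 10.2 and 4.82 at sites 278 bp apart. EXOC8/SPRTN, an exocyst subunit next to a protease of DNA-protein crosslink repair, had 9.93 and 7.08. The widest single peaks over both sites were those of C17orf67/DGKE with 2010 bp and 4.88-fold, HNRNPDL/ENOPH1 with 1894 bp and 11.8-fold, and HIRA/MRPL40, a histone chaperone next to a mitochondrial ribosomal protein, with 1797 bp and 14.2-fold.

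Of 20 pairs listed as long-known divergent pairs, 16 met the rule. Of these, 8 had a new peak, 50% (24.7% to 75.3%), close to the 51.4% of all pairs. HSPD1/HSPE1 encode the mitochondrial chaperonin HSP60 and its cochaperonin HSP10 from start sites 539 bp apart. They had separate peaks of 5.90-fold and 4.97-fold, with 9 and 7 fragments at the summits and a gap of 354 bp. The gap lay within the 539 bp between the sites, which held 59 CpGs in all. PPAT/PAICS, enzymes of purine synthesis, also had 2 peaks, of 7.45-fold and 7.08-fold. Neither reached a start site, though each came within 100 bp of one. PRKDC/MCM4, the catalytic subunit of DNA-dependent protein kinase and a subunit of the replicative helicase, had peaks of 7.56-fold and 11.8-fold on their sites, with a gap of 633 bp.

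The collagen IV pairs were covered as a whole. COL4A1/COL4A2, the main chains of basement membranes, had a 15.5-fold peak of 1470 bp and COL4A4/COL4A3, chains of the kidney glomerulus, a 9.93-fold peak of 1094 bp, each over both sites. SURF1/SURF2, at 63 bp, also had 1 peak over both, with 7.03-fold and a background of 4.27 fragments. ZAR1L/BRCA2 had a 6.06-fold peak of 295 bp over the BRCA2 site only, with 16 CpGs on the ZAR1L side and 39 on that of BRCA2, a homologous recombination gene.

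No new peak was listed at NPAT/ATM, a histone transcription coactivator next to the DNA damage kinase, SARS2/MRPS12 (80), TAP1/PSMB9 (105), an antigen peptide transporter next to an immunoproteasome subunit, or RECQL4/LRRC14 (165). Neither was one listed at TIMM9/KIAA0586 (48), SIRT3/PSMD13 (137), TMEM258/FEN1 (86) or TEX14/RAD51C (76). These 8 pairs thus ranged from 48 to 165 CpGs, and those with a peak from 71 to 162. GART/DONSON and POLR3E/EEF2K were among those that did not meet the rule, and the reason was not examined. COL4A5/COL4A6 lies on chromosome X, which the rule leaves out.

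The gene families were counted by symbol, each beside the 51.4% of all pairs, and with 1 pair per group of overlapping regions all their intervals included that value. Of 62 pairs with a gene of mitochondrial ribosomes, respiration or protein import 23 had a new peak, 37.1% (25.2% to 50.3%), at a median of 78 CpGs. Some of these regions overlap, and with 1 pair per group it was 23 of 59, 39% (26.5% to 52.6%). Those with a peak included CCDC127/SDHA, a subunit of succinate dehydrogenase, with 12.1-fold, COX15/CUTC, an enzyme of heme A synthesis next to a copper-binding protein, with 11.2-fold over the CUTC site only, and HIRA/MRPL40. The 11.8-fold peak at LRRC41/UQCRH lay inside LRRC41, reached 93 bp into the region and ended 490 bp from the start site of UQCRH, a subunit of complex III. Of 11 histone pairs 7 had a peak (30.8% to 89.1%), at a median of 78 CpGs. All but H3C7/H2BC9 join an H2A and an H2B gene. In H2BC21/H2AC20 and H2AC17/H2BC17, 2 peaks lay in the region, with highest folds of 10.6 and 7.34 and neither site covered. H2AC25/H2BC26 also had 2 peaks, but with the H2AC25 site covered. H2AC1/H2BC1 with 51 CpGs and H3C7/H2BC9 with 83 had none.

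Of 55 pairs with a DNA repair or replication gene 29 had a peak, 52.7% (38.8% to 66.3%), with some genes counted in more than 1 pair. The folds included 12.4 for XPC/LSM3, with a gene of nucleotide excision repair, 9.31 for CERT1/POLK, with a translesion polymerase, and 3.96 for POLE/PXMP2, with the leading-strand polymerase and 177 CpGs. MCM7/AP4M1 (112 CpGs), MRE11/ANKRD49 (69) and SMC6/GEN1 (135) had none. Of 30 pairs with a translation gene 13 had a peak (25.5% to 62.6%), of 35 with a zinc finger gene 16 (28.8% to 63.4%) and of 13 with a chaperone gene 7 (25.1% to 80.8%). Besides HSPD1/HSPE1, the chaperone pairs with a peak included ATPSCKMT/CCT5 (12.6-fold) and CDNF/HSPA14 (10.9-fold), while HSPA1L/HSPA1A and CRYAB/HSPB2 had none.

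Motifs of promoter factors were searched as exact letters on both strands. The ETS motif CCGGAAGT was in 23.6% of the pair regions, against 6.77% of the single promoter windows and 9.11% of those with an island. The NRF1 core CGCATGCG was in 8.44%, 3.45% and 4.87%, and the YY1 motif ATGGCGGC in 18%, 8.41% and 11.4%. The BANP core CTCGCGAG was in 4.64% of pair regions and 2.34% of single windows. The TATAAA letters of the TATA box were in fewer pair regions, 18.9% against 33% and 23.3%. The SP1 letters GGGCGG were in 96.2%, 76.2% and 95.4%, CCAAT in 71.9%, 71.6% and 67.7%, and the E-box CACGTG in 25.2%, 20.6% and 23.8%.

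Of the 162 pairs with the ETS motif between the start sites 63 had a new peak, 38.9% (31.3% to 46.9%), and pairs without it, weighted to the same CpG classes, were at 50.5%. For CCAAT the shares were 47.5% (42.6% to 52.4%) of 417 pairs and 57.3%, and for the NRF1 core 43.3% (30.6% to 56.8%) of 60 pairs and 53.1%. Within CpG classes the ETS intervals overlapped, with the lower share on the side of the motif. The shares were 28.3% (16.8% to 42.3%) against 30.7% (24.2% to 37.8%) at 60 to 79 CpGs. They were 40% (22.7% to 59.4%) against 55.7% (48.7% to 62.5%) at 80 to 99 CpGs. At 100 to 119 CpGs they were 67.7% (48.6% to 83.3%) against 77.9% (70.3% to 84.2%). With the YY1 motif the share was 47.6% (25.7% to 70.2%) of 21 pairs against 58.4%. It was 54.4% (50.5% to 58.2%) of 673 against 57.5% with the SP1 letters. With the TATA letters it was 45.2% (29.9% to 61.3%) of 42 against 49.8%. The intervals for YY1, SP1 and TATA, like that for the NRF1 core, included the comparison value. The E-box was at 60.5% (50.9% to 69.6%) of 114 pairs against 59.5%, and the BANP core was at 60.7% of only 28 pairs against 56%. The stretch was longer in pairs with CCAAT, with a median of 309 bp against 158 bp without it, and about as long in pairs with the ETS motif, with 223 bp against 234 bp. Whether the length has a part in these shares was not tested. In the stretches printed above, ALYREF/ANAPC11, without a peak, holds the ETS letters on the minus strand at position 31, and SARS2/MRPS12, without a peak, holds 4 CCAAT boxes. CCAAT boxes are also in stretches of pairs with high peaks, 2 in GLYR1/UBN1, 3 in H2AC25/H2BC26 and 1 in COL4A1/COL4A2.

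The share of pairs with a new peak ranged over chromosomes from 20 of 71 on chromosome 19, 28.2% (18.1% to 40.1%), to 13 of 14 on chromosome 13, 92.9% (66.1% to 99.8%). Single promoters with an island were at 31.8% and 70.4% on these chromosomes. The pairs on chromosome 19 had a median of 88 CpGs, close to the 91 of all pairs, and those on chromosome 13 had 105.5. Of the 461 pairs without a peak, 12 had one within 1000 bp beyond the region.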

How the data were processed

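The list of new peaks of the Ab-3A3L (WT) library was analysed. Per the methods, the authors aligned single-end reads to hg19 using Bowtie2 at its defaults. The submitters' processing notes also name FastQC, deepTools and MACS2, and peak-calling settings are not given in the sources used here. The deposited score equals 10 times the −log10 q, rounded down, the deposited fold is a ratio of fragments at the summit plus 1 to background plus 1, and the authors' −log10 values belong to a p-value and a q-value. The smallest −log10 q was 2.00. All peaks ended within the GRCh37 chromosomes.

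Start sites were those of canonical transcripts in GENCODE release 44 lifted to GRCh37. CpGs, motifs and islands (at least 200 bp, 50% GC and an observed to expected CpG ratio of 0.6) were computed from the GRCh37 sequence, without repeat masking. The fragments k and the background rate of each peak were solved from fold = (k + 1)/(rate + 1) and the Poisson p-value, with a largest miss of 0.000403 in −log10 p. An overlap was at least 1 bp. Shares have 95% exact binomial intervals. A count of 0 was limited at 3 counts. No p-value was computed. Depth outside the peaks is unknown.

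The pairs, gene lists and motifs were chosen with earlier results of these data known. Named pairs are long-known divergent pairs, the 10 highest folds, the 5 with the most CpGs and no peak, the 5 with the fewest CpGs and a peak, the 5 highest folds with separate peaks or with 1 site covered at 200 bp or more, and the 3 widest peaks, with 1 pair per group of overlapping regions. Some long-known pairs are counted but not reported here. Pairs named within the gene families are examples picked after their values were seen. Printed stretches were limited to 40 to 300 bp and to part of the chromosomes, so the CpG-rich pairs without a peak were partly taken from further down that order. The cores of the NRF1 and BANP motifs have 8 letters. Their 10-letter forms, which were the planned ones, were in 4.75% and 1.27% of pair regions and in 1.98% and 0.653% of single windows. A new peak was in 22 of the 45 pair regions with the NRF1 form and 7 of the 12 with the BANP form, beside 51.4% of all pairs. Alternatives varied the peak threshold, overlap, flank, distance, gene set and CpG classes. The steps were tested on simulated data, where 76 of 76 planted pairs and the fragments of 1000 of 1000 peaks were recovered. Analyses ran in Python 3.11.15 (scipy 1.17.1, pandas 2.3.3, numpy 2.4.6), islands were built with numba 0.67.0, and plots were drawn with matplotlib 3.10.9.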

Additional observations from a re-analysis of the deposited data

How the results depend on the processing

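Of 35 alternative values, 19 stayed within the interval of the reported share, or within 1.5 times a ratio, and 16 moved. Among pairs, the share with a new peak was 27.3% (24.5% to 30.3%) at a −log10 q of at least 10. It was 30.6% (27.7% to 33.6%) for peaks of at least the median fold and 46.6% (43.4% to 49.9%) with the summit inside the region. For single promoters these shares were 24.9%, 25.8% and 35.9%, and for coding-lncRNA regions 37.6%, 40.9% and 55.3%. Of these intervals of the pairs, only that at the −log10 q threshold included the share of single promoters. With an overlap of at least 200 bp, single promoters were at 39.8%. With flanks of 250 bp they were at 39.2% and coding-lncRNA regions at 59.8%, and with flanks of 1000 bp single promoters were at 42.7%. Both start sites were in a peak in 29% of pairs with one. This became 43.1% when a site within 100 bp of a peak counted as covered, and 37.2% when peaks less than 500 bp apart were merged. The share with neither site covered fell from 36.8% to 19.9% with the 100 bp allowance. By construction, each of these settings changes how many peaks, or how much sequence, can count. The ratio of the share of pairs to that of single promoters at equal CpG number was 0.854, 0.854 and 0.858 over the CpG classes tried. For mitochondrial pairs, 1 pair per group of overlapping regions moved the interval from below 51.4% to one that includes it, 26.5% to 52.6%. Counting 1 pair per group was chosen after seeing the data. No paired analysis was possible because there was 1 library per condition. Summits held a median of 15 fragments, and without replicates differences between single pairs could not be tested.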
